A study of Homo sapiens with 4 samples.

Results

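The enzymes that remove superoxide and peroxide were examined in HaCaT keratinocytes through 10 genes, SOD1, SOD2, CAT, GPX1 and PRDX1 to PRDX6. The genes were chosen by symbol and not by their values, and each had exactly 1 row among the 44591 genes of the files, of which 19233 are listed as protein-coding. RNA-seq was performed on 4 replicates of HaCaT, a spontaneously immortalized human skin keratinocyte line, described in the study as biological repeats. All 4 were untreated and, per the labels, were grown in Dulbecco's modified Eagle medium with 12% fetal bovine serum, so there is a single condition and no comparison group. The methods of the study give another serum concentration, and the labels are followed here. Levels are given as TPM, the read count of a gene per base of its length, scaled so that the protein-coding genes of a library sum to 1000000.

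Superoxide leaks from the respiratory chain and is also made by oxidases and by radiation. Superoxide dismutases turn it into hydrogen peroxide, which catalase, glutathione peroxidases and peroxiredoxins then reduce to water. Catalase works mainly in peroxisomes, glutathione peroxidase 1 draws on glutathione, and most peroxiredoxins are recycled by thioredoxin. Epidermal keratinocytes, exposed to oxygen and ultraviolet light, depend on all of these systems.

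The label of the cells was checked first. All 12 keratinocyte markers, KRT5, KRT14 and TP63 among them, were above a TPM of 1 in every replicate and summed to between 12445 and 16718. The 7 fibroblast markers summed to 5.20 to 9.70, the 4 melanocyte markers to 1.36 to 3.52 and the endothelial markers to at most 1.49, and TYR and PECAM1 were at 0 throughout. Of the immune markers PTPRC was at most 0.0166, while CD68, a lysosomal gene, ranged from 7.94 to 43.9. Replicate 1 stood apart as a library, with 73082279 counted reads, while replicates 2 to 4 had 17056035 to 19745170. Protein-coding genes held 76.1% of its reads, compared with 95.3% to 96.4% elsewhere, and genes rich in G and C were lower in it. Of TPM over all rows, coding and noncoding, protein-coding genes held 31.0% in replicate 1 and 87.4% to 93.0% in the others. Values of TPM over all rows, given below as an alternative, are scaled by this share. For these reasons the results that replicate 1 moves most are also given for replicates 2 to 4. Without it, each of the 15 differences tested here kept the direction of its mean except that of GPX1 and SOD1, which was close to 0 and turned. No more than 0.608% of detected genes had the same count in any pair of replicates, so the libraries differ from one another.

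All 10 enzymes were detected, that is, had a mean TPM above 1, as did 63.3% of protein-coding genes. A mean TPM above 100, with the gene lengths of the files, was found for 9 of the 10, against 14.3% of the 12165 detected genes. CAT was among the 9 through replicate 1, and without it the mean of CAT was 87.2 ± 27.0 (SD, n = 3). The peroxiredoxins made up most of the transcripts of these 10 genes. Together the 10 genes had a TPM of 3743 ± 584 (SD, n = 4), and the 6 peroxiredoxins held 83.1% ± 0.945 (SD, n = 4) of it, with 82.4% to 84.5% in single replicates. The superoxide dismutases held 7.30% ± 0.576 (SD, n = 4), GPX1 6.22% ± 2.47 (SD, n = 4) and catalase 3.40% ± 1.89 (SD, n = 4). The peroxiredoxin share hardly moved between libraries, while the shares of GPX1 and catalase moved in opposite directions, as described further on.

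**Figure D1:**
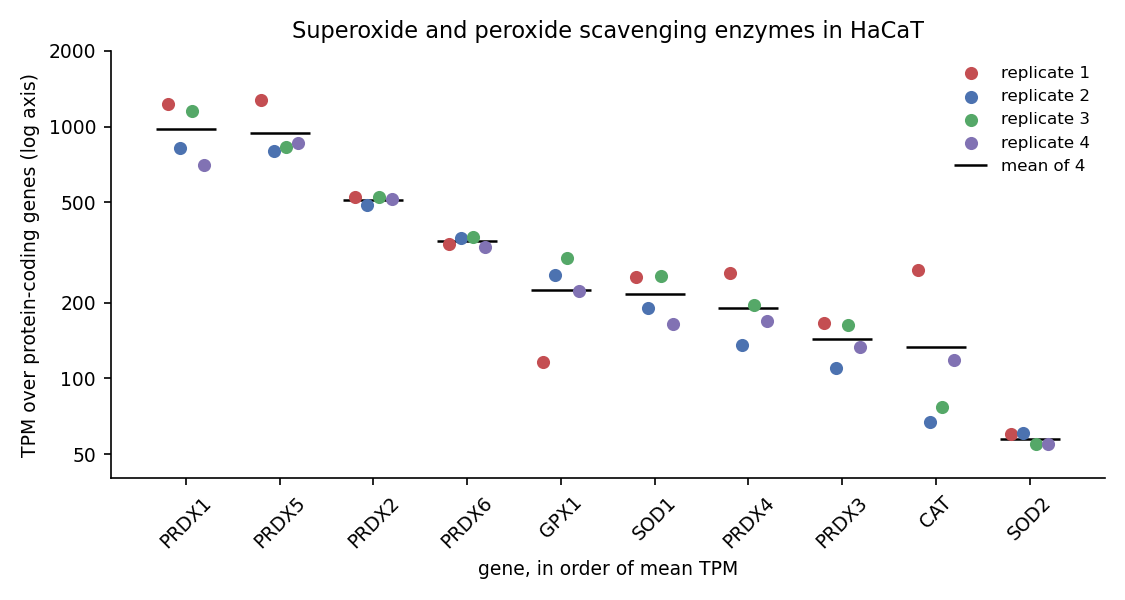
TPM over protein-coding genes (vertical log axis) of the 10 scavenging enzymes in the order of their mean, with 1 point for each replicate and a line at the mean of 4. PRDX1 and PRDX5 lie at or above 706 in every replicate and SOD2 between 54.8 and 60.7, while the points of CAT and GPX1 for replicate 1 lie apart from the rest on opposite sides.

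Of the dismutases, SOD1 encodes the copper-zinc enzyme of the cytosol (chromosome 21, 33031935 to 33041244, plus strand, on the positions of the files, for which the submitters name hg19). Its TPM in replicates 1 to 4 was 253, 189, 256 and 164, which gives a mean of 215 ± 46.1 (SD, n = 4). Replicates 1 and 3 were therefore the high ones and replicate 4 the lowest, and the highest exceeded the lowest 1.56 times (here and below, a ratio of TPM + 1). SOD2 encodes the manganese enzyme of the mitochondrial matrix (chromosome 6, 160100096 to 160183561, minus strand). It had a TPM of 60.0, 60.7, 54.8 and 54.9, a mean of 57.6 ± 3.17 (SD, n = 4), and was the lowest of the 10 in each replicate. On the log2(TPM + 1) scale SOD1 exceeded SOD2 by 1.86 ± 0.32 (SD, n = 4) and did so in 4 of 4 replicates. Without replicate 1 the difference was 1.80 ± 0.35 (SD, n = 3). A two-sided exact sign-flip permutation test gave p = 0.125, and 0.188 after Benjamini-Hochberg adjustment over the 15 differences tested. With 4 replicates this exact permutation test cannot go below p = 0.125, so for each difference the size, its SD and the number of replicates with its sign carry the comparison.

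The low rank of SOD2 rested on the gene length. The files give SOD2 a length of 7897 bases, longer than that of any other of the 10 genes, which range from 905 bases for PRDX5 to 2300 for CAT. In GENCODE release 29 (GRCh38) SOD2 has 11 protein-coding transcripts, from 507 to 14266 bases, with a median of 917. With the median coding transcript as the length of every gene, a setting chosen after seeing the data, SOD2 had a TPM of 278 ± 15.5 (SD, n = 4) and SOD1 128 ± 31.3 (SD, n = 4). SOD2 was then higher than SOD1 in 4 of 4 replicates, by 1.14 ± 0.32 (SD, n = 4) on the log2 scale, and stood at place 4 of the 10. With the union of all annotated exons, 18206 bases for SOD2, it was again last, at 39.7 ± 3.04 (SD, n = 4). The files do not show which SOD2 transcripts the reads came from, so its order against SOD1 was not settled by these data. Its spread between replicates stayed small under each of these lengths.

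**Figure D2:**
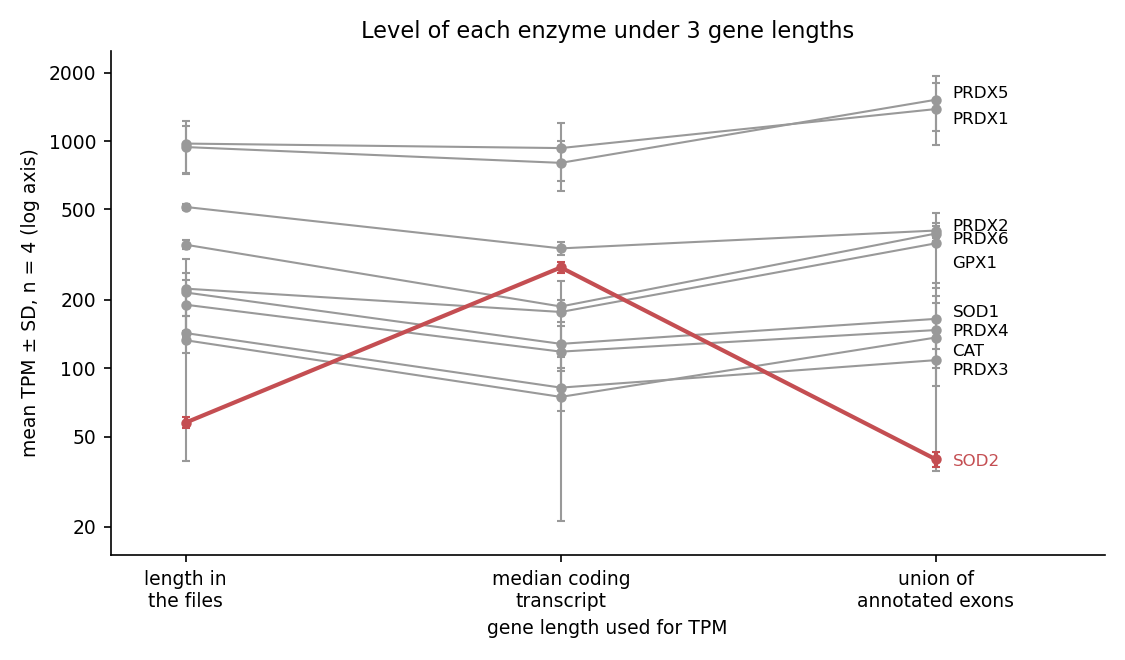
Mean TPM ± SD over 4 replicates (vertical log axis) of each enzyme, computed with the gene length of the files, with the median annotated coding transcript and with the union of annotated exons, SOD2 in red. SOD2 moves from place 10 at 57.6 to place 4 at 278 and back to place 10 at 39.7, while PRDX1 and PRDX5 keep the upper places under all 3 lengths.

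The span of SOD2 in the files also covers WTAP, a subunit of the RNA methylation complex, and the first bases of ACAT2, a thiolase of lipid metabolism, both on the opposite strand. WTAP lies on chromosome 6 from 160148030 to 160177351 and ACAT2 from 160182989 to 160200144. On GRCh38 the exons of WTAP share 437 bases with exons of SOD2, and those of ACAT2 share 1141 bases, or 6.27% of the SOD2 exon bases. The strand setting of the counting is not given in the sources used here, so reads of these genes could have been counted for SOD2. The RefSeq promoter table (GRCh38.p14) lists 4 starts for SOD2, spread over 69040 bases. The start at 159693241 coincides with the annotated start of the coding transcript SOD2-205, and the 250 bases before it (chr6:159693242-159693491, minus strand) are shown, since most of the annotated coding transcripts of SOD2 start close to this point. Capitals mark GGGCGG or its reverse complement CCGCCC, the core of the GC box, and overlapping matches run together.

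SOD2: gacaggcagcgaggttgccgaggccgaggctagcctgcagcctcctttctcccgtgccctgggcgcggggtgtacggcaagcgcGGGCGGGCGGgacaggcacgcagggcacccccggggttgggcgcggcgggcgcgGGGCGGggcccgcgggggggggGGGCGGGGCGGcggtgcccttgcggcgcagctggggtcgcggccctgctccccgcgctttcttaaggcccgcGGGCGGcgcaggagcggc

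This window held 6 matches. Of the 10 enzymes 7 were matched in the promoter table, with 11 windows, and each of the 11 held GGGCGG on either strand. Among all 20534 windows of the files' protein-coding genes the share was 54.6%, and 42.6% among all 35116 windows. A match describes the letters of the window and is not evidence that a factor binds there.

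SOD2 is known as a gene that inflammatory cytokines can induce. The median TPM of 15 interferon-induced genes was 11.6, 299, 334 and 19.2 in replicates 1 to 4. SOD2, at 54.8 to 60.7, did not follow this range. The list covers interferon-induced genes alone, and induction of SOD2 by any cytokine was not tested. Its highest value exceeded its lowest 1.11 times, below the spread of nearly all detected genes (percentile 0.321), whereas with TPM over all rows, where replicate 1 was lower, it was 42.8 ± 16.3 (SD, n = 4).

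On the scale of TPM over protein-coding genes, catalase varied most of the 10 between replicates. CAT (chromosome 11, 34460472 to 34493607, plus strand) encodes the heme enzyme that splits hydrogen peroxide into water and oxygen without a reducing partner. Its TPM in replicates 1 to 4 was 270, 67.0, 76.7 and 118, which gives a mean of 133 ± 93.9 (SD, n = 4). Replicate 1 was the high one, and replicate 4 lay above replicates 2 and 3. The highest exceeded the lowest 3.98 times, or 1.75 times within replicates 2 to 4, and the mean without replicate 1 was 87.2 ± 27.0 (SD, n = 3). Catalase held place 5 of the 10 in replicate 1 and place 9 in each of the others. With TPM over all rows it was 79.9 ± 22.2 (SD, n = 4) and no longer the most variable, as GPX1 was then 183 ± 101 (SD, n = 4).

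GPX1 went the other way. GPX1 (chromosome 3, 49394604 to 49396033, minus strand) encodes a selenoprotein that reduces peroxide with glutathione. Its TPM was 116, 258, 301 and 221, a mean of 224 ± 78.9 (SD, n = 4), so that replicate 1 was the low one. The highest exceeded the lowest 2.57 times, and 1.36 times within replicates 2 to 4. Per base of length CAT had 2.32 times the reads of GPX1 in replicate 1, with a 95% Clopper-Pearson interval of 2.24 to 2.40. Replicate 2 had a ratio of 0.260 (interval 0.241 to 0.280) and replicate 3 of 0.255 (interval 0.240 to 0.270). For replicate 4 it was 0.533 (interval 0.502 to 0.565). Such intervals describe the error of counting alone and not the spread between replicates. Without molecular identifiers several reads can stem from 1 molecule, so that the intervals can be too narrow. GPX1 was thus above catalase in 3 of 4 replicates, and the mean difference of -0.90 ± 1.49 (SD, n = 4; log2(TPM + 1), CAT minus GPX1) was smaller than its spread (exact sign-flip permutation test, p = 0.375, adjusted p = 0.511). Without replicate 1 it was -1.60 ± 0.60 (SD, n = 3). On the scale of TPM over protein-coding genes the sum of both genes was much steadier, at 386, 325, 377 and 339, a mean of 357 ± 29.4 (SD, n = 4). With TPM over all rows the sum is scaled by the protein-coding share, 31.0% in replicate 1 and 87.4% to 93.0% in the others. There it is clearly lowest in replicate 1 and not steady. The sum was not examined on further scales.

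Replicate 1 was set against the mean of replicates 2 to 4 for each enzyme on the log2(TPM + 1) scale. In this comparison 17.4% of the detected genes were more than 2 times higher in replicate 1 and 20.1% more than 2 times lower. Among the enzymes CAT was higher by 1.66 and GPX1 lower by a log2 difference of -1.14, and the other 8 lay between -0.05 for PRDX6 and 0.66 for PRDX4. The median of the 10 was 0.32 and that of all detected genes 0.03. The base composition of the genes moved with the difference: across 11889 detected genes with an annotated coding transcript the Spearman correlation with GC content was -0.51, as a description, since all genes share the same libraries. The GC content is 64.2% in the longest coding transcript of GPX1, at percentile 94.4 of these genes, and 45.2% in that of CAT, at percentile 36.5. After centring within 20 bins of GC content, a step added after seeing the data, the difference was 1.43 for CAT and -0.41 for GPX1, so that CAT kept most of its value and GPX1 the smaller part. PRDX5, whose GC content of 61.5% is also high, rose from 0.62 to 1.27 on centring. The centred difference was 1.00 for PRDX4, 0.83 for PRDX1, 0.65 for PRDX2 and 0.11 for SOD1. It was -0.28 for PRDX6, -0.39 for PRDX3 and -0.54 for SOD2. TPM over all rows instead of protein-coding rows shifted the median gene to -1.27 in this comparison, and there CAT was at 0.14 while the other 9 enzymes were below 0. With edgeR TMM factors, DESeq2 size factors or a common upper quartile CAT stood at 1.62 to 1.66 and GPX1 at -1.18 to -1.14.

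**Figure D3:**
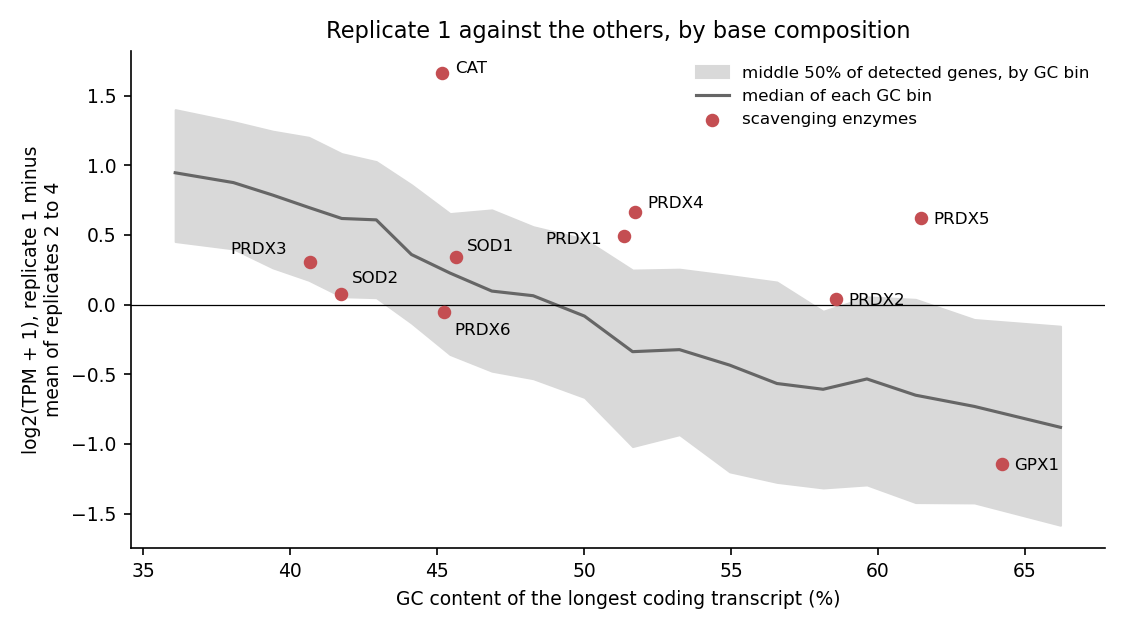
Difference of log2(TPM + 1) between replicate 1 and the mean of replicates 2 to 4 (vertical axis) against the GC content of the longest coding transcript in percent, for the 10 enzymes (red points) and for detected genes in 20 GC bins (line, median; band, middle 50%). CAT at 1.66 lies above the band, as do PRDX4 at 0.66, PRDX5 at 0.62, PRDX1 at 0.49 and, narrowly, PRDX2 at 0.04. GPX1 at -1.14 lies inside it. With TPM over all rows the median gene shifts to -1.27 and all of the enzymes but CAT fall below 0.

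The 250 bases before the annotated start of CAT (chr11:34438684-34438933, plus strand, RefSeq on GRCh38.p14) are shown because CAT had the widest range of TPM over protein-coding genes among the 10. Capitals mark CCAAT or its reverse complement ATTGG, the CCAAT box.

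CAT: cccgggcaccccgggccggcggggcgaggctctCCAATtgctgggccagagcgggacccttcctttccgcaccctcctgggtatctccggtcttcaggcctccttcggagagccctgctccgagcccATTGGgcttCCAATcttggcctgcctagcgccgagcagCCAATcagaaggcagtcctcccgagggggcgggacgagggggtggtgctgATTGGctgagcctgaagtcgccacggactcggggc

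The window held 5 matches. Of the 20534 windows of protein-coding genes 32.7% held at least 1 match and 0.326% held 5 or more. Among the other 6 enzymes in the table CCAAT was found only for SOD2, in 2 of its 4 windows. The antioxidant response element core TGACNNNGC (other strand GCNNNGTCA), known as the site of NRF2, was found in none of the 11 windows, against 11.2% of those of protein-coding genes, which says only that these letters do not occur in this stretch. SOD1, PRDX1 and PRDX6 had no entry.

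The genes whose pattern over the replicates was most like that of CAT, the enzyme of widest range, were sought among all detected genes. Likeness was measured as the Euclidean distance of log2(TPM + 1), centred on the gene mean, over 4 replicates. The nearest were CRNDE at 0.0949, TESK2 at 0.105 and STX12 at 0.123, with a TPM in replicate 1 of 33.8, 14.9 and 42.0 against at most 18.4 in any other replicate. CRNDE is listed as protein-coding in the files.

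Among the peroxiredoxins, the cytosolic PRDX1 and the widely distributed PRDX5 shared the upper place. PRDX1 (chromosome 1, 45976707 to 45988562, minus strand) reached 1228, 819, 1149 and 706 TPM, a mean of 975 ± 252 (SD, n = 4). PRDX5 (chromosome 11, 64085560 to 64089295, plus strand), found in mitochondria, peroxisomes and cytosol, had 1278, 796, 831 and 861, a mean of 942 ± 226 (SD, n = 4). PRDX5 led in replicates 1 and 4 and PRDX1 in replicates 2 and 3, and in 4 of 4 replicates no other enzyme of the 10 reached either of them. Their difference was 0.04 ± 0.32 (SD, n = 4) on the log2 scale, well inside its spread (exact sign-flip permutation test, p = 0.875, adjusted p = 0.938). By their means they stood at percentiles 98.9 and 98.8 of the detected genes. Within replicates 2 to 4 PRDX5 varied by only 1.08 times and PRDX1 by 1.63 times.

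PRDX2 and PRDX6 were among the steadiest genes on the scale of TPM over protein-coding genes. PRDX2 (chromosome 19, 12907634 to 12912724, minus strand), a close relative of PRDX1 in the cytosol, had a TPM of 524, 487, 524 and 516, a mean of 513 ± 17.8 (SD, n = 4). PRDX6 (chromosome 1, 173446486 to 173457946, plus strand), which has a single catalytic cysteine and uses glutathione, had 340, 361, 364 and 333, a mean of 350 ± 15.4 (SD, n = 4). The highest replicate exceeded the lowest 1.08 times for PRDX2 and 1.09 times for PRDX6, at percentiles 0.148 and 0.238 of the spread of all detected genes. This held for that scale, and with TPM over all rows PRDX2 was 383 ± 149 (SD, n = 4) and PRDX6 264 ± 106 (SD, n = 4), with replicate 1 lower for both. With TPM scaled to a common upper quartile PRDX2 was 516 ± 54.4 (SD, n = 4) and PRDX6 352 ± 39.5 (SD, n = 4). On the scale of TPM over protein-coding genes, replicate 1 differed from the others by 0.04 for PRDX2, with a GC content of 58.6%. For PRDX6, with 45.2%, it differed by -0.05. After centring within bins of GC content these differences were 0.65 for PRDX2 and -0.28 for PRDX6. PRDX1 exceeded PRDX2 by 0.89 ± 0.36 (SD, n = 4) and PRDX2 exceeded PRDX6 by 0.55 ± 0.09 (SD, n = 4), each in 4 of 4 replicates (exact sign-flip permutation test, p = 0.125, adjusted p = 0.188). The order of PRDX2 and PRDX6 depended on gene length, with a difference of 0.04 ± 0.09 (SD, n = 4) for the union of annotated exons and 0.85 ± 0.09 (SD, n = 4) for the median coding transcript. An antisense gene over PRDX2, ENSG00000267062.1, had 6, 54, 84 and 40 counts, few beside the 3360 to 13217 counts of PRDX2.

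PRDX3 and PRDX4 serve single organelles and were expressed at a lower level. PRDX4 (chromosome X, 23685645 to 23704514, plus strand), the peroxiredoxin of the endoplasmic reticulum, had a TPM of 262, 136, 195 and 169, a mean of 190 ± 53.3 (SD, n = 4). PRDX3 (chromosome 10, 120927211 to 120938377, minus strand), the mitochondrial member, had 165, 110, 164 and 133, a mean of 143 ± 26.6 (SD, n = 4). For both genes replicate 2 was the lowest and replicate 1 the highest. Between the peroxiredoxins of mitochondria, PRDX3 was below PRDX5 in 4 of 4 replicates, with a log2 difference of -2.70 ± 0.27 (SD, n = 4) (exact sign-flip permutation test, p = 0.125, adjusted p = 0.188). PRDX4 exceeded PRDX3 by 0.39 ± 0.18 (SD, n = 4), again in 4 of 4.

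The 6 peroxiredoxins were next set against CAT and GPX1 alone, and not against all routes of peroxide removal. Other glutathione peroxidases, among them GPX2 and GPX4 with a mean TPM of 316 and 287, were left out, and including them was not tested. The peroxiredoxins summed to 3797, 2709, 3227 and 2718 in replicates 1 to 4, and CAT and GPX1 to 325 to 386. The difference was 3.11 ± 0.13 (SD, n = 4) on the log2 scale, an 8.64-fold ratio, with 3.30 in replicate 1 and at most 3.09 in the others (exact sign-flip permutation test, p = 0.125, adjusted p = 0.188). PRDX1 alone exceeded SOD1 by 2.16 ± 0.08 (SD, n = 4), the smallest spread of the 15 differences, although both genes varied by more than 1.5 times between libraries. Per base of length PRDX1 had 4.30 to 4.85 times the reads of SOD1, and the intervals of replicates 2 to 4 overlapped one another.

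In the order of mean TPM, PRDX1, PRDX5, PRDX2, PRDX6, GPX1, SOD1, PRDX4, PRDX3, CAT and SOD2, the difference between neighbours was larger than its SD for 5 of 9 pairs, with the same sign in 4 of 4 replicates. These were PRDX5 over PRDX2, PRDX2 over PRDX6, PRDX6 over GPX1, PRDX4 over PRDX3 and CAT over SOD2. Only PRDX5 over PRDX2 and PRDX4 over PRDX3 kept both properties with the union of exons and with the median coding transcript. PRDX6 minus GPX1 was 0.22 ± 0.56 (SD, n = 4) and 0.16 ± 0.56 (SD, n = 4) under these lengths, with 2 of 4 replicates in its direction, and CAT minus SOD2 was -2.11 ± 0.88 (SD, n = 4) with the median coding transcript. PRDX1 and PRDX5, GPX1 and SOD1, SOD1 and PRDX4, and PRDX3 and CAT did not differ beyond their spread. The mean difference of GPX1 and SOD1 was 0.00 ± 0.75 (SD, n = 4), with GPX1 lower in replicate 1 and higher in the other replicates. Without replicate 1, GPX1 exceeded SOD1 by 0.37 ± 0.12 (SD, n = 3).

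Between replicates, 2 of the 10 enzymes, CAT and GPX1, differed more than 2 times between the highest and the lowest library, against 59.1% of all detected genes. Of the 3519 protein-coding genes with a mean TPM above 50, which all 10 enzymes pass, 51.3% did so. The median of the highest over the lowest replicate was 1.58 for the enzymes, 2.23 for detected genes and 2.03 for those above 50. The count differed between settings. With TPM scaled to a common upper quartile it was 3, against 57.7% of detected genes. With counts scaled by edgeR TMM factors or by DESeq2 size factors, both without gene length, it was 4, against 58.7% and 58.8%. With TPM over all rows it was 9, where 82.0% of detected genes passed. Without replicate 1 it was 0 of 10, against 22.7% of detected genes and 15.2% of those above 50, and the medians were 1.39, 1.55 and 1.45.

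**Figure D4:**
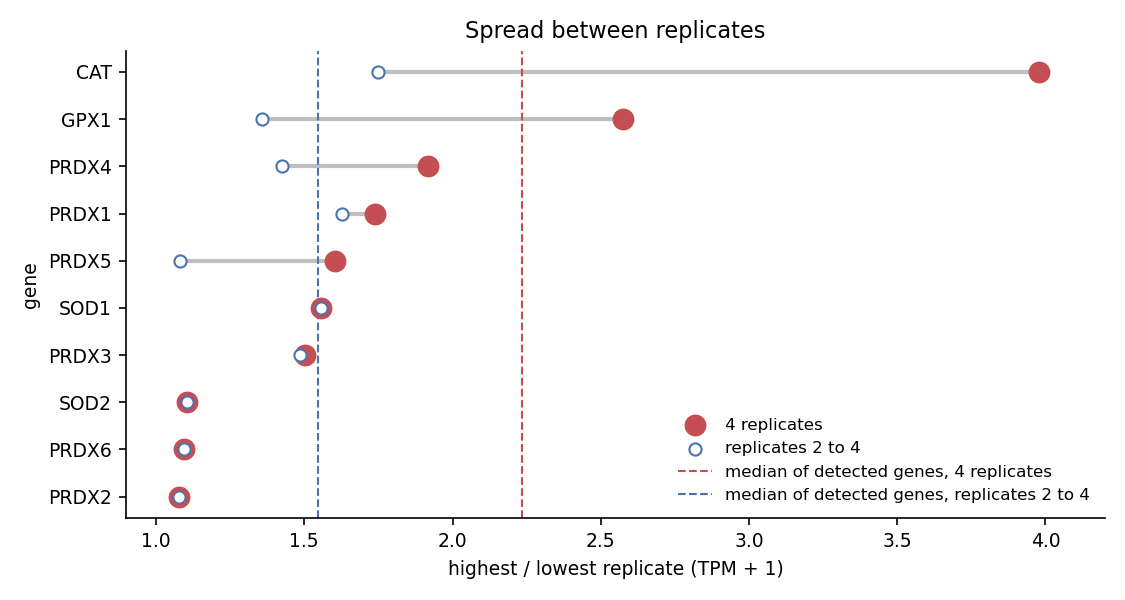
Highest over lowest replicate of TPM + 1 (horizontal axis) for each enzyme in all 4 replicates (filled) and in replicates 2 to 4 (open, drawn over the filled point where both coincide), with dashed lines at the medians of detected genes, 2.23 and 1.55. CAT at 3.98 and GPX1 at 2.57 lie beyond 2 with replicate 1, and no enzyme does so without it; with TPM over all rows 9 of 10 lie beyond 2.

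Partners that metallate or reduce the scavenging enzymes were examined together with further scavengers, such as SOD3 and other glutathione peroxidases, and with related genes. This wider antioxidant list held 26 genes. Of these 24 were detected, a share to be read against the 63.3% of protein-coding genes, and 23 were above a TPM of 1 in replicate 1. CCS, the chaperone that loads copper into SOD1, had a TPM of 47.5 ± 12.2 (SD, n = 4). SOD3, the extracellular dismutase, was not detectable at this depth, with 1 count in replicate 4 and 0 in the others, where 3 counts stand for a TPM of 0.0807 to 0.295. GPX7, a peroxidase of the endoplasmic reticulum, had 0 counts in each library, which allows a TPM of up to 0.367 in replicate 2, the shallowest.

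Of the other glutathione peroxidases, GPX2, the epithelial enzyme, had the highest mean with 316 ± 164 (SD, n = 4). Replicate 1 had a TPM of 561, and replicates 2 to 4 lay between 228 and 242, so that its rank rested on replicate 1. GPX4, which reduces lipid peroxides, followed with 287 ± 76.4 (SD, n = 4) and was lowest in replicate 1, at 184. In replicates 2 to 4 it had 276, 340 and 350, above GPX2 in each. GPX3 had 46, 33 and 43 counts in replicates 2 to 4 and 0 in replicate 1, the deepest library, where 3 counts stand for a TPM of 0.0681.

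The thioredoxin system, which recycles most peroxiredoxins, was detected with all 6 of its genes. TXN, thioredoxin itself, was above every scavenging enzyme by its mean, with 1994, 1063, 1509 and 919 and a mean of 1371 ± 485 (SD, n = 4). Its mitochondrial counterpart TXN2 had 103 ± 21.7 (SD, n = 4). TXNRD1, the cytosolic reductase, had 126 ± 44.2 (SD, n = 4) and was lowest in replicate 1, at 67.8. TXNIP, which binds and inhibits thioredoxin, had 573 in replicate 1 and 152, 115 and 61.3 in replicates 2 to 4, a range wider than that of any of the 10 enzymes with or without replicate 1. The lowest of the group was TXNRD3, with 8.98 ± 2.05 (SD, n = 4).

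SRXN1, the sulfiredoxin that reduces overoxidised peroxiredoxins, was grouped with the sestrins, a family of stress-response genes, and had the highest level of them with 139 ± 59.2 (SD, n = 4) and was lowest in replicate 1, at 76.0. SESN3, a sestrin, had 87.5 in replicate 1 and 7.53, 2.41 and 14.6 in replicates 2 to 4. The lowest was SESN1 with 6.49 ± 3.38 (SD, n = 4). All 8 genes of glutathione synthesis and use were detected, from GLRX with 15.4 ± 2.50 (SD, n = 4) to GLRX5, a mitochondrial glutaredoxin, with 112 ± 37.8 (SD, n = 4). GCLM and GCLC, the subunits of the first enzyme of glutathione synthesis, had 26.5 ± 9.94 (SD, n = 4) and 63.5 ± 11.8 (SD, n = 4). PARK7, a redox-sensitive protein, had 328 ± 50.5 (SD, n = 4). Of the 24 detected genes of the wider list 10 differed more than 2 times between replicates, against 59.1% of detected genes. Within replicates 2 to 4 this held for 2, TXNIP and SESN3, against 22.7% of detected genes.

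**Figure D5:**
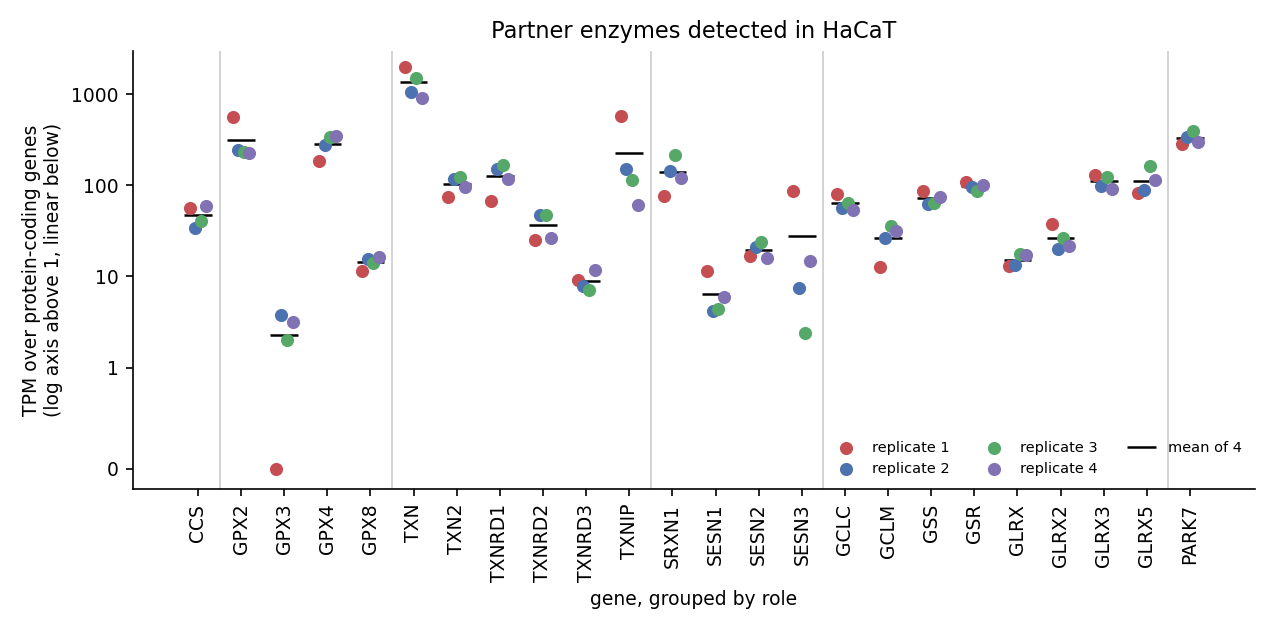
TPM over protein-coding genes (vertical axis, log above 1 and linear below) of the 24 detected genes of the wider list, grouped by role between grey lines, with 1 point for each replicate and a line at the mean of 4. TXN lies at or above 919 in every replicate, GPX3 is at 0 in replicate 1, and TXNIP and SESN3 have the widest ranges.

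Reads of near-identical gene copies could have been split in counting. The files list 9 pseudogenes named after GPX1, PRDX1, PRDX2 or PRDX3, with at most 22 counts in any library and 3 of them at 0 throughout, so few reads were assigned to them. PRDX1 shares its end with MMACHC on the opposite strand, which had 145 to 496 counts beside 7088 to 40210 of PRDX1.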

How the data were processed

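RNA-seq data of 4 replicates of untreated HaCaT keratinocytes were analysed. The authors deposited raw read counts per gene for each replicate with a gene length, RPKM for replicates 1 and 2 and TPM for replicates 3 and 4. The deposited RPKM and TPM were returned from the counts and lengths, so TPM over protein-coding rows was computed for all 4. The submitters' processing notes name hg19 and the tools HISAT2, TopHat2, Bowtie2 and HISAT, without role or version. The counting program and its strand setting are not given in the sources used here.

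The genes and lists were chosen with earlier results of these data known. The genes named are the 10 enzymes, the highest and lowest of each role in the wider list, pseudogenes and overlapping genes, and the 3 genes nearest to the enzyme of widest range. GPX3, GPX4, TXN2, TXNRD1, TXNIP, SESN3, GCLC and GCLM fall outside this rule and were named after their values were seen. With a single condition no differential expression was tested. Differences of log2(TPM + 1) within replicates (pseudocount 1, which understates changes of low genes) were compared by an exact permutation test that flips their signs, two-sided, and ratios of counts have 95% Clopper-Pearson intervals. Detection was a mean TPM above 1, and 3 counts were taken as the floor, a CPM of 0.0410 to 0.176. GC content and transcript lengths were taken from GENCODE release 29 by gene name, with GC content found for 97.7% of detected genes and a median coding transcript for 97.1% of protein-coding genes. Genes without one kept the length of the files. Alternatives were gene length, scaling (edgeR TMM, DESeq2 size factors, upper quartile, all rows), pseudocount, filters and leaving out each replicate. The scripts were tested on simulated data. R 4.3.3 with edgeR 4.0.16 and DESeq2 1.42.0 gave the scaling factors, and Python 3.11.15 with SciPy 1.17.1, pandas 2.3.3, NumPy 2.4.6 and matplotlib 3.10.9 the rest.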

Additional observations from a re-analysis of the deposited data

Results flagged for a closer look

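Dixon's test at its 95% limit was applied to 54 quantities measured in 4 replicates each, and 6 of them had a single value set apart. By chance 1 in 20 would, or 2.70, and the quantities share libraries and genes. Of the 6 values 5 belonged to replicate 1, which also differs in depth and base composition. The part of these in the values was not tested.

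For PRDX5 the TPM was 1278 in replicate 1, while replicates 2 to 4 lay between 796 and 861. PRDX5 minus PRDX2 on the log2(TPM + 1) scale was 1.28 in replicate 1 and 0.66 to 0.74 elsewhere. GPX1 minus SOD1 was -1.12 in replicate 1 and 0.23 to 0.44 elsewhere.

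Of the genes of the wider list, GPX2 stood at a TPM of 561 in replicate 1 and at 228 to 242 elsewhere, and SESN3 at 87.5 and 2.41 to 14.6. The SOD3 value, a TPM of 0.0878 in replicate 4, was a single count and lies under the floor of 3 counts.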

How the results depend on the processing

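Of the recomputed differences between enzymes 149 kept their direction and 16 reversed. With CPM, that is, no length correction, the difference was -0.13 for PRDX2 minus PRDX6, 0.56 for GPX1 minus SOD1, -0.42 for PRDX4 minus PRDX3, -0.18 for PRDX3 minus CAT, -0.80 for CAT minus SOD2 and -1.14 for SOD1 minus SOD2. With the union of exons it was -0.15 for PRDX1 minus PRDX5, 1.06 for GPX1 minus SOD1 and -0.11 for PRDX3 minus CAT. With the median coding transcript it was 0.41 for GPX1 minus SOD1, -2.11 for CAT minus SOD2 and -1.14 for SOD1 minus SOD2. GPX1 minus SOD1, near 0, was 0.0017 with TPM over all rows and 0.00064 with the values as deposited. Leaving out 1 replicate gave -0.10 (without replicate 3) to 0.15 for PRDX1 minus PRDX5 and -0.15 to 0.37 (without replicate 1) for GPX1 minus SOD1. The cause of these reversals, beyond the change of setting itself, was not tested. The exact sign-flip permutation test cannot pass 0.05 with 4 replicates, so no difference had a call to lose. PRDX2 minus PRDX6 kept its direction with the union of exons but was 0.04, within its SD.

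The number of enzymes over 2-fold between replicates was 2, and 4 with edgeR TMM factors, 4 with DESeq2 size factors, 9 with TPM over all rows, 3 with a common upper quartile, 7 at a limit of 1.5-fold (84.9% of detected genes) and 0 (without replicate 1) to 2 when 1 replicate was left out. The number of detected genes of the wider list was 24, and 21 to 24 under the 7 alternatives. The level moved by more than its SD in 22 recomputed values and by less in 58. The median coding transcript, the union of exons for levels, the centring on GC content and the limit of 50 TPM were chosen after seeing the data. No paired analysis was possible because there is a single group, so that replicate numbers cannot pair samples across groups, while differences between enzymes were already taken within each replicate. Depth limits SOD3 and GPX7.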
